A study of Mus musculus with 42 samples.

Results

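Mitosis genes are described here across RNA-Seq data of natural killer cells resident in the mouse uterus (trNK). The set was a written list of 38 genes chosen by role, of 54353 genes shared by all bulk tables. By role, the list held 7 cyclins and entry enzymes (Cdk1, Ccna2, Ccnb1, Ccnb2, the phosphatase Cdc25c, Plk1 and Aurka). Members of the chromosomal passenger complex numbered 4 (Aurkb, Incenp, Birc5 and Cdca8). The list had 4 checkpoint genes (Bub1, Bub1b, Ttk and Mad2l1) and 3 genes of anaphase onset (Cdc20, Ube2c and Pttg1). It also held 7 kinetochore and centromere genes (Cenpa, Cenpe, Cenpf, Ndc80, Nuf2, Spc24 and Spc25), 5 spindle genes (Kif11, Kif2c, Tpx2, Hmmr and Nusap1), 6 midzone and cytokinesis genes (Kif20a, Kif23, Prc1, Racgap1, Ect2 and Anln), and Mki67 and Top2a, which mark proliferating chromatin.

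A cell enters mitosis when Cdk1 bound to a B-type cyclin is activated by phosphatases such as Cdc25c and supported by Plk1 and Aurka. Kinetochores then capture the spindle, the checkpoint kinases Bub1 and Ttk hold anaphase back, and the anaphase-promoting complex with Cdc20 destroys securin (Pttg1) and the cyclins. Transcripts of this set build up late in the cell cycle and are repressed in resting cells by the DREAM complex, which binds a promoter element called CHR. Uterine NK cells are known to proliferate in early pregnancy while the stroma decidualizes.

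The study followed trNK cells of C57BL/6 female mice, 8 to 12 weeks old by its methods, through decidualization, and tested IL-21 on them in culture. The bulk data were 34 libraries of wild-type cells in 17 groups of 2 libraries each. In the gestation set, trNK cells (CD45+NK1.1+NKp46+CD49a+CXCR6-) were sorted from virgin mice and from pregnant mice of gestation days (gd) 6.5 and 8.5. In the subsets set, gd8.5 trNK cells were sorted by CD55 and 4-1BB into CB_low, CB_int and CB_hi. In the 3 day culture set, live NK1.1+ cells were taken after culture without addition (ctrl), with 20 ng/mL IL-21 (Il21), or with IL-21 and 1 μM of the STAT3 inhibitor Stattic (Il21/iSTAT3). The methods text gives the dose of Stattic in another unit than the label. In the time course, trNK cells of gd6.5 mice were held in 10 ng/ml IL-15 with or without 20 ng/ml IL-21 and taken at 0, 6, 24 and 72 h. The paper states that both cultures began with the trNK-V subgroup of gd6.5 mice, with low or no 4-1BB and CD55. The methods give IL-15 for the 3 day culture too, so no cultured group was free of cytokine, and the protocol text of the labels gives another IL-15 concentration than the label of each sample. The single-cell library pooled sorted CD45+NK1.1+NKp46+ cells of 5 virgin and 2 gd8.5 mice, and its tables do not say which cell came from which. Nothing in the labels ties the 2 libraries of a group to separate mice or cultures, so p-values measure the spread between these libraries, which may be technical.

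Levels are given as RPKM, counts scaled to exon length and library size, which allow genes to be compared per length. Differences are log2 fold changes of the counts ± SE. A gene was tested where its RPKM was above 10 in both libraries of at least 1 group of its set. It was called where the adjusted p was below 0.05 and the fold change above 2 (edgeR's quasi-likelihood test with Benjamini-Hochberg adjustment over all genes tested, 1 fit per set). Adjusted p-values below come from that test. Numbers of genes at an unadjusted p under 0.05 describe the listed genes alone. The share of all genes at that p is not set beside them, so no rise or fall is read from these numbers. Where a library was left out, its group kept 1 library, which was assumed to vary like the other groups of the set. A member that passed the level filter only through the group where it was high had to differ, so shares above or below 0 and medians of the set are given over all 38 genes, from a fit to the wider gene set of edgeR's filterByExpr.

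Library totals were 11862089 to 66468883 counts, and 8488 to 13636 genes had at least 10 counts. The trNK markers Itga1, Ncr1, Klrb1c and Eomes were above 0 in all 34 libraries, Ncr1 (NKp46) at 46.8 to 1030.4 RPKM. Cxcr6, whose protein the sort gate excludes, ranged from 0 to 106 RPKM, with 83.5 and 6.68 in the 72 h libraries without IL-21, 106 and 87.8 in those with it, 55.9 and 34.7 in ctrl and 33.8 in CB_low replicate 2. The part of CXCR6+ cells in the results was not tested. CB_int replicate 2 stood apart by a summed level of 6249.5 RPKM of 4 plasma cell markers (Jchain, Mzb1, Sdc1 and Igha), against 10.1 or less in the other libraries. Summed erythroid markers reached 224 RPKM in virgin replicate 2 and 844 RPKM in gd8.5 replicate 2, against 12.8 or less elsewhere. Virgin replicate 1 had the highest sum of B cell markers (Cd79a, Cd79b, Ms4a1 and Ighm), 470 RPKM against 298.5 or less elsewhere. Its sum of T cell markers (Cd3d, Cd3e, Cd3g and Trac) was also the highest, 274 RPKM against 182.6 or less. In the table of virgin replicate 1, exon lengths of Kif11, Kif20a, Incenp and Cdc25c were longer than in the other tables, so its counts of these 4 genes covered more exon sequence.

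**Figure D1:**
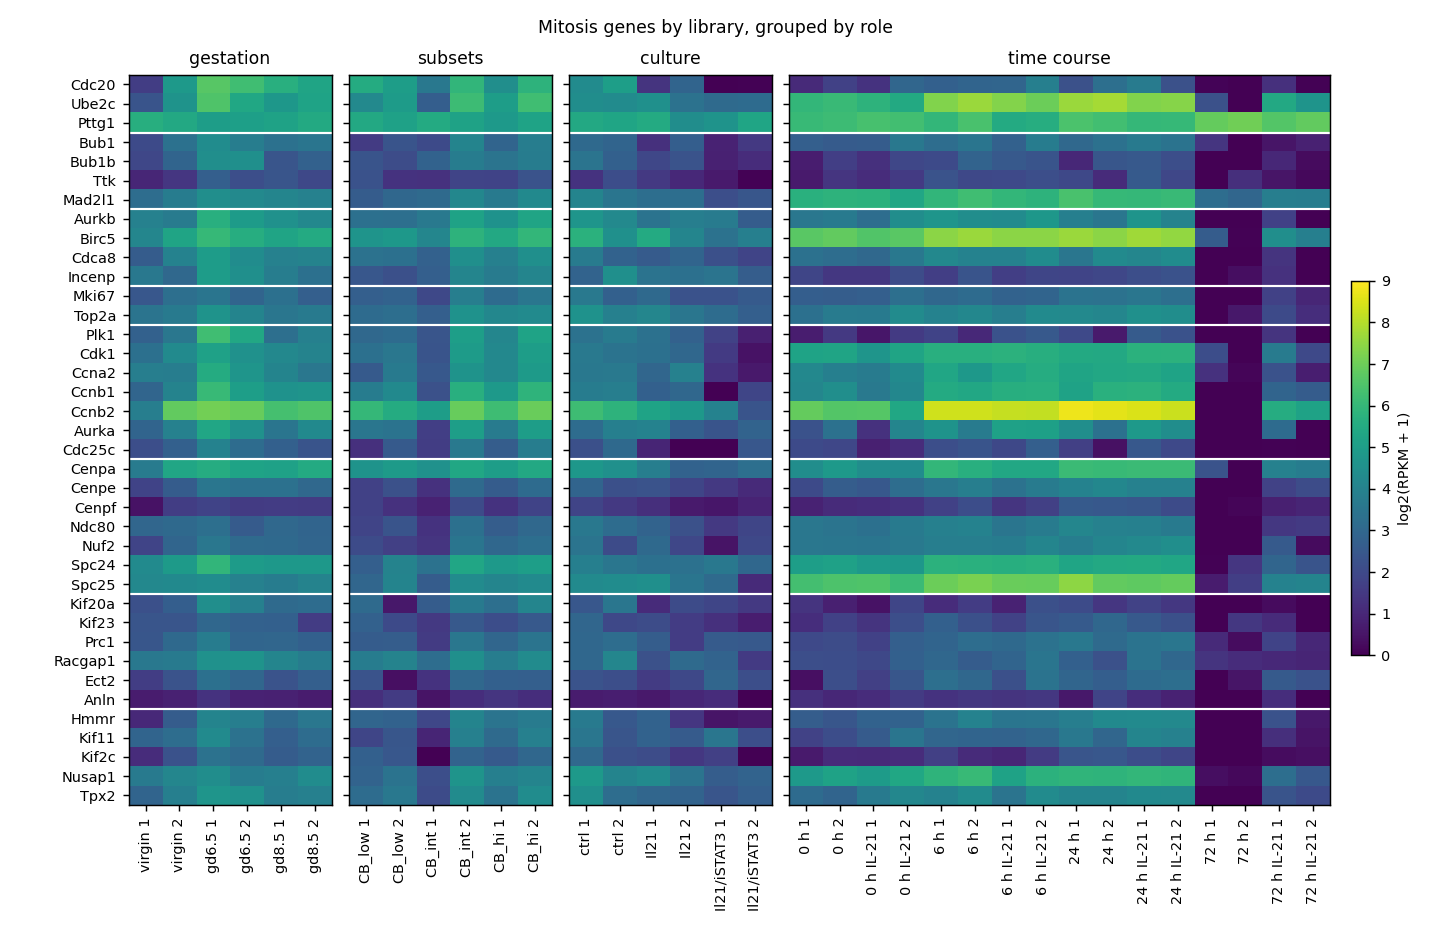
Heat map of log2(RPKM + 1) of the 38 mitosis genes (rows, in blocks of 1 role) in the 34 bulk libraries (columns, replicates 1 and 2 of each group). The 2 libraries at 72 h without IL-21 are dark in nearly every row, whereas Pttg1 stays bright there at 117 and 130.3 RPKM.

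Promoters of the set are shown because its members moved together in several comparisons below. In RefSeq (GRCm38.p6), 31 of the 38 genes had a promoter entry of 300 bases, 250 before and 50 after the transcription start. On both strands, the CHR letters TTTGAA stood in 23 of these 31 members (74.2%), against 20.2% of the 27025 genes with an entry, and the variant TTCGAA in 3 (9.68%) against 1.8%. CCAAT, the letters of the box bound by NF-Y, stood in 23 of 31 members (74.2%) against 41.1% of genes. CCAAT with TTTGAA or TTCGAA stood in 21 of 31 (67.7%) against 8.61% of genes, and the E2F letters TTTGGCGC and TTTCCCGC in 0 of 31, against 0.585% and 1.24%. None of these motifs is contained in another, and a match is a description of the sequence, not a bound site. The 150 bases from 110 before the start to 40 after it follow for 6 members, of which Ccnb1, Cdc20, Cdk1 and Plk1 are followed in every set, Ccnb2 had the largest fitted changes at 72 h, and Pttg1 moved against the others. They are written 5′ to 3′ on the gene's strand, with CCAAT (or ATTGG, its reverse complement), TTTGAA and TTCGAA in capitals.
Ccnb1 (chr13:100786447-100786596, minus strand): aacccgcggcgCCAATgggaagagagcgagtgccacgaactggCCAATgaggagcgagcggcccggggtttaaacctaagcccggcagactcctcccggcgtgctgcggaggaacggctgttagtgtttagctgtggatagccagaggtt
Ccnb2 (chr9:70421515-70421664, minus strand): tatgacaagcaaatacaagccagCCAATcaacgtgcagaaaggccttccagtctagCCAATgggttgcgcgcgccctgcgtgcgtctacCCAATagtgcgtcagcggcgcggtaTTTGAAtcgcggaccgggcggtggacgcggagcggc
Cdc20 (chr4:118437304-118437453, minus strand): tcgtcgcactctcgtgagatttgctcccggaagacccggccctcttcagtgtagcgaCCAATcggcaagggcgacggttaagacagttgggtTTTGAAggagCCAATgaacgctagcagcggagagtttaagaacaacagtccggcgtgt
Cdk1 (chr10:69352873-69353022, minus strand): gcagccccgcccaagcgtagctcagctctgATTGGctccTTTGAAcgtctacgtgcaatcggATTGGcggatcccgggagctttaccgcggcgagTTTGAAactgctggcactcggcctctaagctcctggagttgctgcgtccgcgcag
Plk1 (chr7:122159325-122159474, plus strand): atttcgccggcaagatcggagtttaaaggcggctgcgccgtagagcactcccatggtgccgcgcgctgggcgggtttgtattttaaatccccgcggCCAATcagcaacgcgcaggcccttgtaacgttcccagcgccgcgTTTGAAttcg
Pttg1 (chr11:43425942-43426091, minus strand): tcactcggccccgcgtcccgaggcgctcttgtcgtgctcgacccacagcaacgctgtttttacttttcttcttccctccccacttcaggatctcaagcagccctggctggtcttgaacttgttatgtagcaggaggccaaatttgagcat

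Ccnb2 held 3 CCAAT runs and 1 TTTGAA within these bases, Cdc20 2 and 1, Cdk1 2 and 2, and Plk1 1 and 1. Ccnb1 held 2 CCAAT runs and no TTTGAA or TTCGAA, while Pttg1 held none of the motifs searched in its 300 bases. The RefSeq start used for Pttg1 lies 270 bases inside the gene as the deposited tables place it, so that these bases lie within that gene, whereas the starts of the other 5 lie 4 to 84 bases from the gene's end in the tables.

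Summed over the 38 genes, the level was 451 ± 207 RPKM (mean ± SD, n = 2) in virgin trNK cells, 1035 ± 268 at gd6.5, and again lower, 617 ± 25.9, at gd8.5. The subsets gave 409 ± 9.52 in CB_low, 597 ± 489.5 in CB_int and 760.4 ± 261 in CB_hi. In the 3 day culture, sums were 525 ± 71.7 in ctrl, 319 ± 81.8 with Il21 and 174 ± 16.3 with Il21/iSTAT3. In the time course without IL-21, the sum was 756 ± 35.4 at 0 h, 1481 ± 76.9 at 6 h, 1620.0 ± 86.8 at 24 h and 147.5 ± 0.6 at 72 h. With IL-21, the 2 libraries gave 709 and 729 RPKM at 0 h, 1319.9 and 1376 at 6 h, 1576 and 1456 at 24 h, and 338 and 266 at 72 h. Pttg1 alone gave 124 ± 9.58 of the sum at 72 h without IL-21 and 104 ± 13 of that with it, and the other 37 genes summed to 23.9 ± 10.2 and 198 ± 63.8 RPKM. In bulk libraries, a smaller share of dividing cells and less of these RNAs per dividing cell cannot be told apart.

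**Figure D2:**
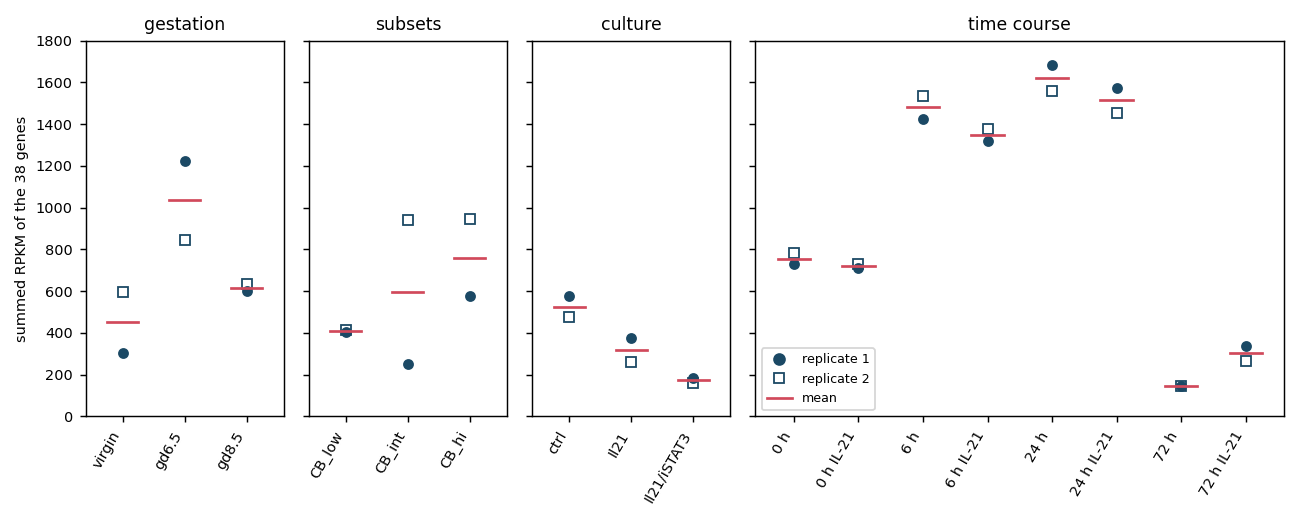
Summed RPKM of the 38 mitosis genes (vertical axis) in each bulk library, by group and set, with a circle for replicate 1, a square for replicate 2 and a bar for their mean. The sums at 6 and 24 h lie between 1319.9 and 1681 RPKM, above every other group of the time course, and the 72 h libraries without IL-21 lie at 147 and 148.

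Whether mitosis genes changed with decidualization was read from the gestation set, where 25 of the 38 were tested. At gd6.5 against virgin, 5 rose and 0 fell: the entry kinase Plk1, the mitotic cyclin Ccnb1, the passenger kinase Aurkb, the checkpoint pseudokinase Bub1b and the midzone kinesin Kif20a. Of all 4504 genes tested, 3.17% were called higher, or 143 genes against 135 lower (214 and 100 with library totals in place of TMM factors). Of the 25, 6 passed the level filter through gd6.5 alone (Plk1, Bub1, Bub1b, Hmmr, Kif20a and Incenp), 3 of the 5 calls among them. With filterByExpr and all 38 genes, the log2 fold change was above 0 in 35, with a median of 1.08 against -0.01 over the 14040 genes fitted, and 0 were called, as were 0% of those genes in this direction, with 25 of the 38 at an unadjusted p under 0.05. The spread between the virgin libraries was wide, with 33 of the 38 genes higher in replicate 2. Replicate 2 held the erythroid markers at 224 RPKM, and replicate 1 the highest B and T cell markers, at 470 and 274 RPKM. What part cells of these kinds had in the spread was not tested.

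Plk1, which drives mitotic entry and spindle assembly, stood at 5.91 and 11 RPKM in the virgin libraries, 74.6 and 41.3 at gd6.5, against 8.65 and 14.2 RPKM at gd8.5. Both gd6.5 libraries were above the other 4, and the log2 fold change over virgin was 2.70 ± 0.47 with an adjusted p of 0.0311. Ccnb1, the cyclin that activates Cdk1, was at 6.67 and 15.1 in virgin, 65.3 and 31.7 at gd6.5, against 23.2 and 24.5 RPKM at gd8.5. It rose by 2.07 ± 0.48 on the log2 scale (adjusted p = 0.0482), with no overlap of the gd6.5 and virgin libraries. Bub1b, which inhibits Cdc20 until all kinetochores are attached, had 2.74 and 6.42 RPKM in virgin, 20.9 and 21.2 at gd6.5, against 4.23 and 5.98 RPKM at gd8.5. Its rise at gd6.5 was 2.12 ± 0.43 (adjusted p = 0.038), and its gd8.5 libraries lay within the virgin range. Kif20a, a kinesin of the central spindle, had 3.6 and 5.37, 20.6 and 14.2 and 7.55 and 8.15 RPKM in virgin, gd6.5 and gd8.5. Its gd6.5 libraries were the highest pair, at 1.87 ± 0.32 over virgin (adjusted p = 0.0311). Aurkb, the kinase that corrects faulty attachments, had 14.7 and 12.5, 50.1 and 29.4 and 22.4 and 17.5 RPKM in the same order. It rose least of the 5, by 1.46 ± 0.30 (adjusted p = 0.0389), and its gd8.5 libraries also lay above the virgin pair.

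Other members were also higher at gd6.5 but did not pass. Cdc20, the activator of the anaphase-promoting complex, had 2.12 and 27.8 RPKM in the virgin libraries, 99.5 and 75.5 at gd6.5, against 50.1 and 37.7 RPKM at gd8.5. Its log2 fold change at gd6.5 was 2.47 ± 0.99 with an adjusted p of 0.143 and all 4 pregnant libraries above both virgin ones. Cdk1, the mitotic kinase itself, was at 9.1 and 18.7, 34.4 and 22.6 and 17.5 and 15.3 RPKM in virgin, gd6.5 and gd8.5 cells. The gd6.5 libraries were again highest, at 0.96 ± 0.37 (adjusted p = 0.137). Birc5, which encodes survivin of the passenger complex, gave 16.4 and 37.5, 64.7 and 48.3 and 37.2 and 44 RPKM, and 0.98 ± 0.39 for gd6.5 over virgin (adjusted p = 0.14). Top2a, the topoisomerase that untangles chromosomes, gave 9.9 and 11.9, 23.4 and 15.7 and 10.5 and 11.8 RPKM. Its gd6.5 libraries were highest, with a log2 fold change of 0.76 ± 0.24 (adjusted p = 0.0883). Mki67, the common proliferation marker, was at 4.44 and 8.7, 10.2 and 6.55 and 9.09 and 5.69 RPKM and not tested, and its 3 groups overlapped.

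Pttg1, the securin that guards sister chromatids, went the other way, with 49.1 and 41.7 RPKM in virgin, 31 and 32.5 at gd6.5, against 35.7 and 42.8 RPKM at gd8.5. Its gd6.5 pair was the lowest, at a log2 fold change of -0.60 ± 0.19 (adjusted p = 0.091). Of the lists written beside the 38, 3 of 33 tested genes of other mitotic machinery rose (Pkmyt1, Fzr1 and Ckap2l), as did 8 of 36 DNA replication genes, led by Uhrf1 (2.11), Pold1 (1.71), Mcm5 (1.71) and Mcm2 (1.62) on the log2 scale. Of all genes tested, 3.17% were called higher. Of 10 G1 and quiescence genes, 1 fell, the antiproliferative Btg1 (-1.47), and 0 rose. These list calls did not hold in the wider gene set of filterByExpr either, where 0 of 87, 0 of 50 and 0 of 26 were called, with 41, 30 and 8 at an unadjusted p under 0.05.

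At gd8.5 against virgin, edgeR called 0 of the 25, with 0 at an unadjusted p under 0.05, and DESeq2 and limma-voom also called 0. Over all genes, 0.422% were called in either direction. Without virgin replicate 2, which held erythroid markers at 224 RPKM, 9 were called, against 10.7% of all genes, and without gd8.5 replicate 2, which held them at 844 RPKM, 0 were. Virgin replicate 1 held the highest B and T cell markers, at 470 and 274 RPKM. What part cells of these kinds had in either result was not tested. Over all 38 genes with filterByExpr, the log2 fold change was above 0 in 31, with a median of 0.40 against 0 over all genes. Cdc20 (1.49 ± 0.96, adjusted p = 0.504) and Hmmr (1.49 ± 0.66, adjusted p = 0.376) were highest. Hmmr, a spindle assembly factor, had 1.08 and 5.16, 15.8 and 13.3 and 7.51 and 10.7 RPKM in virgin, gd6.5 and gd8.5. Spc25, an Ndc80 complex subunit, was lowest at -0.42 ± 0.25 (adjusted p = 0.478), followed by Pttg1 at -0.27 ± 0.19. The RPKM of Spc25 were 17.5 and 18.1 in virgin, 20.0 and 14.5 at gd6.5, against 12.6 and 15.2 RPKM at gd8.5.

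Between gd6.5 and gd8.5, edgeR called 0 of 25 members and 0% of all genes tested. Among the members, 8 had an unadjusted p under 0.05, DESeq2 called 5 lower (4.91% of all genes called in either direction), and limma-voom called 0. With filterByExpr and all 38 genes, 35 had a log2 fold change below 0 (median -0.71 against 0.01 over all genes). Plk1 was lowest at -2.32 ± 0.46 (adjusted p = 0.0947), then Bub1b at -2.02 ± 0.43 (adjusted p = 0.0958), both with gd8.5 libraries below the gd6.5 pair. Pttg1 (0.33 ± 0.19, adjusted p = 0.343) and the spindle protein Nusap1 (0.06 ± 0.32, adjusted p = 0.932) were the 2 tested members above 0. Nusap1 had 12.1 and 16.6, 20.2 and 12.9 and 13.9 and 20.0 RPKM in virgin, gd6.5 and gd8.5, and its 3 groups overlapped. The 3 gestation comparisons share their groups, so these differences are not independent of each other.

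The calls at gd6.5 changed with the method and with the genes and libraries fitted. DESeq2 called 12 members (10.3% of all genes in either direction) and limma-voom 9 (7.93%). With the replicate number as a block, edgeR called 0 (0.0444%). None of the 5 passed with the wider filterByExpr gene set, with only the virgin and gd6.5 libraries fitted, or without either gd6.5 library, whereas 19 members were called without virgin replicate 2, against 17.4% of all genes, and 8 without virgin replicate 1, against 10.1%.

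**Figure D3:**
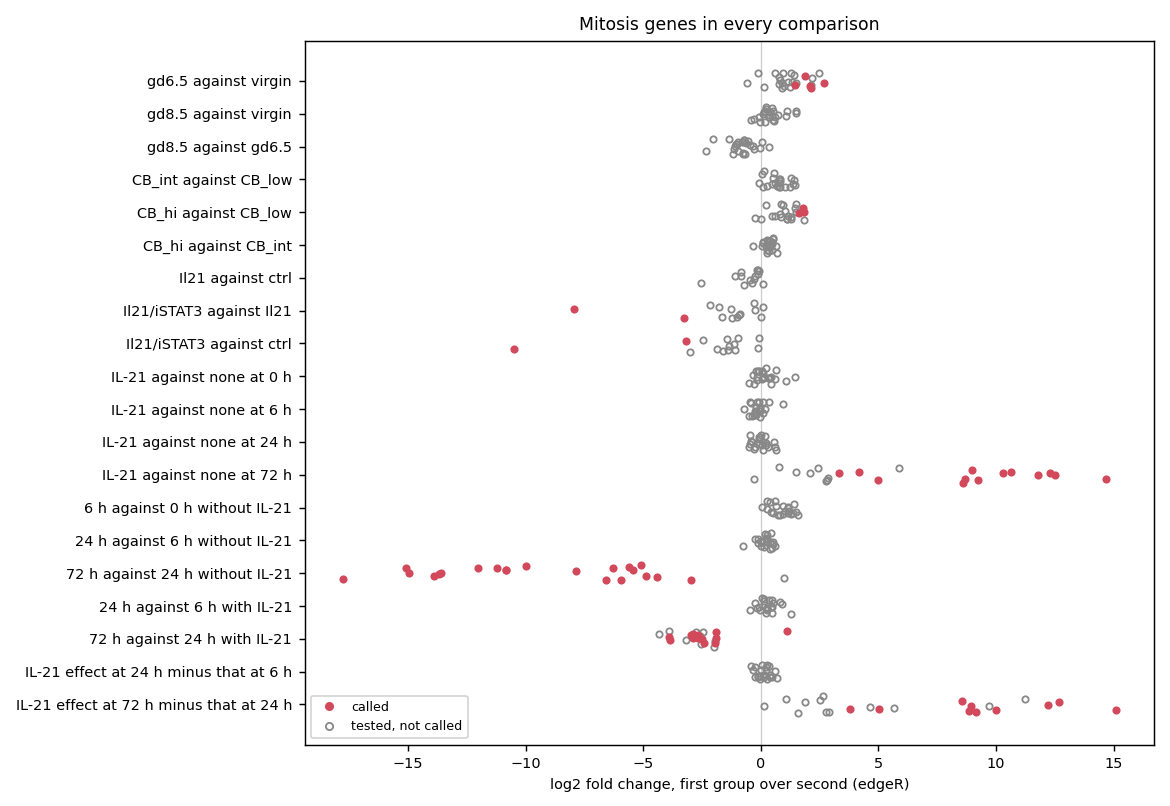
Log2 fold changes (horizontal axis) of the tested mitosis genes in each of the 20 comparisons (vertical axis), as filled points where called and open points where not, for members that passed the level filter. The points lie farthest from 0 in the comparisons that include 72 h without IL-21, where the fitted values of genes at 0 counts depend on the prior count.

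Whether the gd8.5 subsets differed was read from CB_low, CB_int and CB_hi, with 22 members tested. In CB_hi against CB_low, 3 rose and 0 fell: the passenger genes Incenp and Aurkb and the checkpoint gene Bub1b. Of all 4683 genes tested, 8.05% were called higher, so the members' count of 3 in 22 stood close to the background. Of the 22, 13 passed the level filter through CB_hi alone, Incenp and Bub1b among them. Over all 38 genes with filterByExpr, the log2 fold change was above 0 in 36 (median 1.25 against -0.05 over the 14335 genes fitted) and 0 were called, against 3.35% of those genes called higher, with 4 of the 38 at an unadjusted p under 0.05.

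Incenp, the scaffold of the passenger complex, had 4.49 and 3.56 RPKM in CB_low, 5.56 and 16 in CB_int and 12.4 and 16.1 in CB_hi. Each CB_hi library was above both CB_low libraries, at 1.83 ± 0.52 on the log2 scale (adjusted p = 0.0367). Aurkb had 8.91 and 8.82, 11.4 and 35.6 and 22.9 and 37.6 RPKM in the same order. It rose by 1.77 ± 0.54 in CB_hi (adjusted p = 0.0432), the CB_int libraries lying on either side of CB_hi replicate 1. Bub1b had 4.0 and 3.3, 6.04 and 12.8 and 10.0 and 12.7 RPKM and rose by 1.64 ± 0.42 in CB_hi (adjusted p = 0.0258). Its highest value was in CB_int replicate 2.

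The widest spread lay inside CB_int. There, 37 of the 38 genes were higher in replicate 2 and 33 differed by over 2-fold between the replicates, against 235 of 4683 genes tested. Plk1 was at 7.13 and 7.87 RPKM in CB_low, 4.2 and 32.3 in CB_int and 16.7 and 36.2 in CB_hi. Ccnb1 was at 12.9 and 18.2, 3.74 and 50.3 and 27.3 and 57.3 RPKM, and Cdk1 at 8.98 and 10.7, 4.09 and 30.0 and 17.6 and 31 RPKM. In each of these 3 genes CB_int replicate 1 was the lowest library of the 6 and replicate 2 lay between the CB_hi replicates. Replicate 2 is the library with the plasma cell markers at 6249.5 RPKM, and their part in its mitosis gene levels was not tested. Kif2c, a kinesin that takes microtubules apart, had 0 counts in CB_int replicate 1 and 6.23 RPKM in replicate 2.

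Mki67 had 5.62 and 6.14, 2.83 and 13.3 and 7.82 and 10.5 RPKM in CB_low, CB_int and CB_hi, and Top2a 7.91 and 8.49, 5.56 and 23 and 17.1 and 18.8. For both, the CB_hi libraries were above the CB_low pair and between the CB_int replicates. Birc5 had 24.1 and 27, 16.4 and 55 and 42.4 and 60.9 RPKM, with 1.02 ± 0.52 for CB_hi over CB_low (adjusted p = 0.164). Cdc20, with 45.5 and 30.9, 11.3 and 60.3 and 21.1 and 55.8 RPKM, overlapped in all 3 subsets. Pttg1 was again the tested member below 0, at -0.27 ± 0.24 (adjusted p = 0.4), with 42.5 and 34.2, 44.1 and 35.8 and 27.2 and 36.3 RPKM.

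In CB_int against CB_low, edgeR called 0 of 22 members and 0.32% of all genes in either direction. Among the members, 4 had an unadjusted p under 0.05, and DESeq2 called 1 (3.99% of all genes) and limma-voom 0. With filterByExpr and all 38 genes, 34 were above 0 (median 0.83 against 0.01). Incenp (1.44 ± 0.52, adjusted p = 0.211) and Aurkb (1.43 ± 0.53, adjusted p = 0.22) were highest, and Cdc20 (-0.07 ± 0.77) and Pttg1 (0.07 ± 0.24) lowest. In CB_hi against CB_int, edgeR, DESeq2 and limma-voom called 0 of 22, with 0 at an unadjusted p under 0.05, against 1.75% of all genes by edgeR. The 2 highest were the cyclins Ccna2 (0.71 ± 0.76) and Ccnb1 (0.62 ± 0.98), and the 2 lowest Pttg1 (-0.34 ± 0.24) and Nusap1 (0.07 ± 0.77), with adjusted p-values of 0.437 to 0.968 over the 22. Ccna2, the cyclin of S phase and early mitosis, had 4.89 and 11.7, 4.57 and 23.5 and 17.6 and 28.8 RPKM across the subsets.

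In CB_hi against CB_low, where 8.05% of all genes were called higher, 3 of 19 tested genes of other mitotic machinery rose (Cks1b at 1.57, Cenpm at 1.40 and Zwint at 1.16), and 4 of 31 DNA replication genes, Gins1 (3.52), Ccne1 (2.12), Tyms (1.53) and Prim1 (1.45). Of 12 G1 and quiescence genes, 6 fell, led by Btg1 (-2.59) and the cyclin Ccnd2 (-1.66), and 1 rose, where 13.1% of all genes tested were called lower. With filterByExpr, 1 of 87 and 4 of 50 rose in the first 2 lists, against 3.35% of all genes called higher, and 5 of 26 G1 and quiescence genes fell and 1 rose, against 3.4% of all genes called lower. The 3 member calls were lost without any 1 of the 4 CB_low and CB_hi libraries, and 0 remained with filterByExpr, whereas 9 were called when only these 4 libraries were fitted, against 21.4% of all genes in either direction.

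In the 3 day culture, which compared ctrl, Il21 and Il21/iSTAT3, 14 members were tested. No group had the inhibitor without IL-21. Against Il21, an effect of the drug itself and a loss of IL-21 signal therefore cannot be told apart. Against ctrl, which had no added IL-21, Il21/iSTAT3 differed by both IL-21 and the drug, and their parts were not tested. With Il21/iSTAT3, 2 fell against ctrl and against Il21, Cdc20 and Ccna2, and 0 rose. Of all 4158 genes tested, 1.8% were called lower against ctrl and 1.15% against Il21. Against ctrl these were 75 genes, with 122 higher (160 and 79 with library totals in place of TMM factors). Of the 14, 9 passed the level filter through ctrl alone, Cdc20 and Ccna2 among them. Over all 38 genes with filterByExpr, 35 log2 fold changes were below 0 against ctrl (median -1.36 against -0.09 over the 13647 genes fitted) and 31 against Il21 (median -0.98 against -0.09). With that gene set 0 of the 38 were called in both comparisons, against 0.0147% and 0% of genes called lower, with 16 and 9 members at an unadjusted p under 0.05. Ncr1 moved alongside, at 473 and 358 RPKM in ctrl, 146 and 156 with Il21 and 46.8 and 77.3 with Il21/iSTAT3, and the part of cells of another kind was not tested.

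Cdc20 had 19.4 and 32.3 RPKM in ctrl, 1.58 and 6.39 with Il21 and 0 and 0.0279 with Il21/iSTAT3, the last from 0 and 1 counts. The 3 groups did not overlap, and Il21/iSTAT3 was lower than ctrl at -10.50 ± 1.26 (adjusted p = 0.00691) and than Il21 at -7.96 ± 1.21 (adjusted p = 0.0217). Since 1 library had 0 counts and the other 1, the size of these fitted values depends on the prior count. The ratio of pooled counts, scaled to library totals, was 2342 (419.8 to 92558) for ctrl and 374 (66.3 to 14833) for Il21, each over Il21/iSTAT3 (exact 95% counting intervals). Ccna2 had 11.1 and 11.3, 6.79 and 14.7 and 1.52 and 0.524 RPKM in the same groups. It fell with Il21/iSTAT3 at -3.16 ± 0.65 against ctrl (adjusted p = 0.0362) and -3.27 ± 0.66 against Il21 (adjusted p = 0.0453), while ctrl and Il21 overlapped. The call against Il21 was not made with library totals in place of TMM factors (adjusted p = 0.0571).

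Plk1, not tested for its level, had 9.41 and 12.5 RPKM in ctrl, 9.14 and 5.9 with Il21 and 2.46 and 0.736 with Il21/iSTAT3. Cdk1 had 11.4 and 9.87, 9.08 and 7.06 and 1.89 and 0.37 RPKM, and Ccnb1 12.8 and 13.3, 5.72 and 7.05 and 0 and 2.65 RPKM. In these 3 genes each Il21/iSTAT3 library was below both Il21 libraries, and these below both ctrl libraries. Birc5 had 53.1 and 22.1, 43.8 and 16 and 9.54 and 13.8 RPKM, with -1.39 ± 0.61 for Il21/iSTAT3 against ctrl (adjusted p = 0.226). Top2a had 23.2 and 14.1, 16.3 and 10.5 and 8.14 and 5.62 RPKM, and Mki67 11.6 and 5.81, 7.35 and 3.81 and 3.85 and 4.82. Aurkb had 25.1 and 17.7, 9.69 and 13.6 and 12.5 and 5.21 RPKM, and here the Il21 and Il21/iSTAT3 libraries overlapped. Pttg1 overlapped between Il21/iSTAT3 and Il21, with 42.3 and 38.2, 44.8 and 20.1 and 23.7 and 37.9 RPKM.

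For Il21 against ctrl, edgeR called 0 of 14 members, with 2 at an unadjusted p under 0.05, DESeq2 called 1 lower (3.9% of all genes in either direction) and limma-voom 0, and edgeR called 0.289% of all genes in either direction. With filterByExpr and all 38 genes, 34 were below 0 and the median was -0.43 against -0.03. Cdc20 was lowest at -2.54 ± 0.79 (adjusted p = 0.288), then the centromeric histone Cenpa at -1.08 ± 0.46 (adjusted p = 0.537), with 25.9 and 21.8 RPKM in ctrl, 13.4 and 6.13 with Il21 and 6.55 and 8.75 with Il21/iSTAT3. The highest were Ccna2 (0.11 ± 0.60) and Spc25 (-0.07 ± 0.80), the latter at 18.7 and 19.5, 21.3 and 10.4 and 7.55 and 1.1 RPKM. Of other mitotic machinery, 3 of 25 tested genes fell with Il21/iSTAT3 against ctrl (Cdca2 at -3.14, Cks2 at -2.96 and Ska2 at -2.26), and 0 of 24 DNA replication genes were called, with 4 at an unadjusted p under 0.05. The cell cycle inhibitors Cdkn2b (4.82) and Cdkn1a (3.06) rose, and Ccnd2 (-1.61) fell, among 12 G1 and quiescence genes. With filterByExpr, 0 of 87 other mitotic genes were called, with 21 at an unadjusted p under 0.05, and of 25 G1 and quiescence genes 1 rose, against 0.139% of all genes called higher, and 0 fell. Both calls of Ccna2 were lost without any 1 of the 4 libraries compared, and that of Cdc20 against Il21 without either Il21/iSTAT3 library, while Cdc20 against ctrl stayed called.

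The time course asked how the effect of IL-21 develops, with 22 members tested. At 0, 6 and 24 h, IL-21 against none gave 0 calls among the 22 by edgeR, DESeq2 and limma-voom, with 2, 1 and 0 members at an unadjusted p under 0.05. Of all 3503 genes, edgeR called 0%, 1.97% and 1.66% in either direction at these times. At 0 h the labels give no time of exposure to IL-21, so that comparison describes differences between libraries. There the members ranged from Ccnb2 (-0.49 ± 0.36) and Ccnb1 (-0.33 ± 0.24) to Tpx2 (1.08 ± 0.47) and Kif11 (1.46 ± 0.52). At 6 h they ranged from Pttg1 (-0.71 ± 0.27) and Nusap1 (-0.51 ± 0.28) to Ccna2 (0.35 ± 0.83) and Aurka (0.92 ± 1.62). At 24 h the range was Ube2c (-0.49 ± 0.98) and Spc25 (-0.46 ± 0.47) to Aurkb (0.60 ± 1.26) and Kif11 (0.65 ± 0.51).

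The summed level of the 38 genes was highest at 6 and 24 h. Ccnb2, a B-type cyclin, had 115 and 95.2 RPKM at 0 h, 323 and 326 at 6 h and 434 and 398 at 24 h without IL-21, and 97.7 and 40.6, 295 and 289 and 358 and 309 with it. Every 6 and 24 h library was above every 0 h library in both arms. Ccnb1 had 16.5 and 20.6 RPKM at 0 h, 44.3 and 41.3 at 6 h and 35.6 and 51.6 at 24 h without IL-21, and 11.5 and 17, 48.5 and 50.3 and 54.3 and 43.8 with it. Birc5 had 103 and 114 RPKM at 0 h, 173 and 199 at 6 h and 201 and 170.1 at 24 h without IL-21, and 94.2 and 103, 171 and 174 and 212 and 185 with it. As with Ccnb2, the 6 and 24 h libraries of these 2 genes lay above the 0 h libraries. Cdk1 had 36 and 37.6 RPKM at 0 h, 50.7 and 50.7 at 6 h and 43 and 42 at 24 h without IL-21, and 25.2 and 37.3, 54 and 48.6 and 53.3 and 53.9 with it. Top2a had 8.97 and 12.4 RPKM at 0 h, 14.8 and 17 at 6 h and 17.7 and 16.6 at 24 h without IL-21, and 12.2 and 19.2, 13.6 and 18.7 and 21.7 and 20.0 with it. The 0 h libraries of Cdk1 were the lowest of these, whereas for Top2a the 0 h libraries overlapped with the later ones.

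Mki67 had 5.4 and 5.23 RPKM at 0 h, 7.11 and 7.95 at 6 h and 9.87 and 9.5 at 24 h without IL-21, and 5.55 and 8.74, 6.13 and 6.52 and 10.5 and 8.69 with it. Aurkb had 10.9 and 11.8 RPKM at 0 h, 25 and 20.2 at 6 h and 13.7 and 10.5 at 24 h without IL-21, and 8.3 and 20.5, 19.3 and 26.2 and 24.2 and 15.2 with it. The 0 h libraries of both genes overlapped with later ones. Plk1 had 0.664 and 1.85 RPKM at 0 h, 2.49 and 1.03 at 6 h and 2.95 and 0.573 at 24 h without IL-21, and 0.454 and 1.91, 3.79 and 4.76 and 5.05 and 3.85 with it, and Cdc20 had 1.1 and 2.36 RPKM at 0 h, 5.75 and 6.5 at 6 h and 3.65 and 8.65 at 24 h without IL-21, and 1.47 and 6.75, 6.57 and 13.6 and 12.5 and 3.67 with it. Both were low here, under 15 RPKM in every library of the time course.

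From 0 to 6 h without IL-21, edgeR called 0 of 22 members and 0% of all genes, with 5 members at an unadjusted p under 0.05, 2 called by DESeq2 (0.228% of all genes) and 0 by limma-voom. Over all 38 genes with filterByExpr, all log2 fold changes were above 0, with a median of 0.89 against 0 over all genes. The tested members ranged from Pttg1 (0.05 ± 0.26) and Nuf2 (0.27 ± 0.84) to Cenpe (1.48 ± 0.51) and Ccnb2 (1.57 ± 0.36, adjusted p = 0.768). From 6 to 24 h, edgeR, DESeq2 and limma-voom called 0 of 22 in either arm, with 0 at an unadjusted p under 0.05 without IL-21 and 1 with it. Over all genes, edgeR called 0.0856% without IL-21 and 0.0285% with it. The extremes without IL-21 were Aurkb (-0.77 ± 1.26), Spc24 (-0.24 ± 0.90), Cenpe (0.51 ± 0.50) and Kif11 (0.58 ± 0.51), and with IL-21 Aurka (-0.45 ± 1.61), Spc24 (-0.23 ± 0.90), Hmmr (0.88 ± 0.64) and Kif11 (1.28 ± 0.52). Cenpe, the kinesin that carries chromosomes to the spindle equator, had 3.09 and 5.32 RPKM at 0 h, 11 and 13.4 at 6 h and 14.8 and 17.1 at 24 h without IL-21, and 4.61 and 8.27, 9.49 and 12.3 and 14.7 and 14.3 with it.

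**Figure D4:**
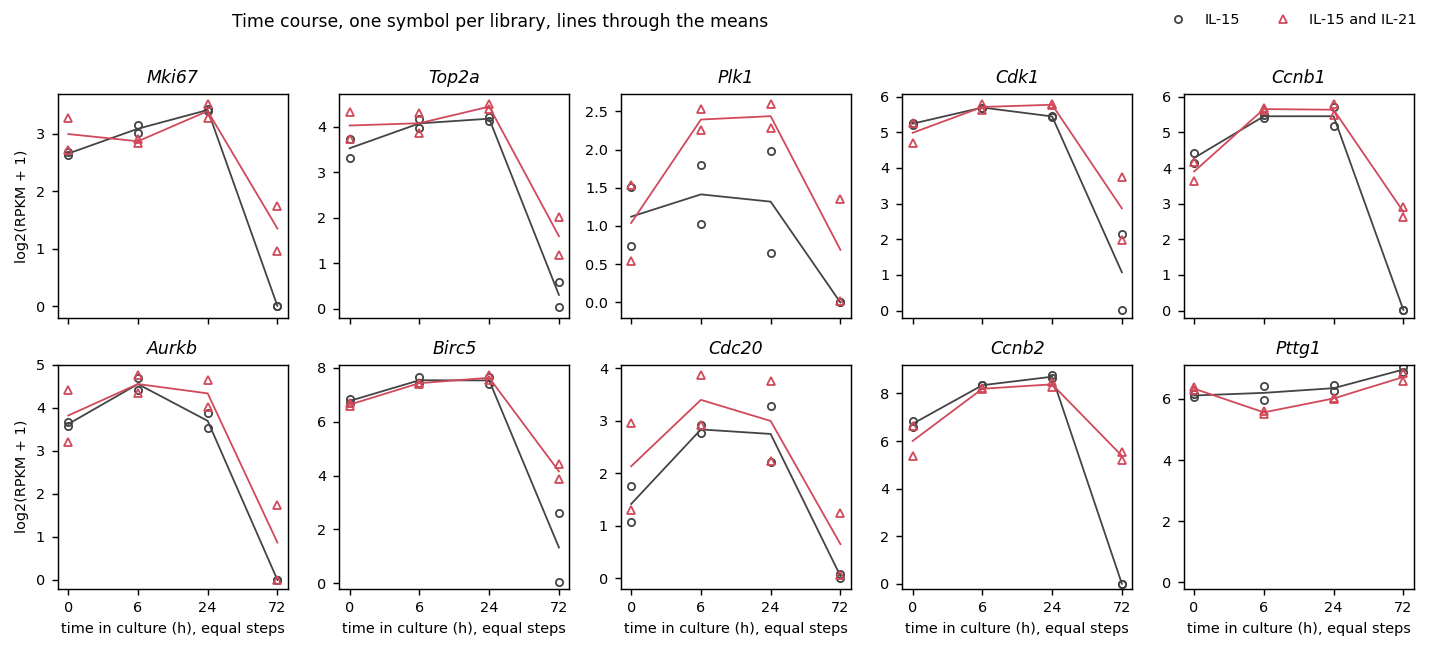
Log2(RPKM + 1) of 10 mitosis genes (vertical axis, 1 panel per gene with its own scale) at 0, 6, 24 and 72 h in culture (horizontal axis, equal steps), with circles for libraries without IL-21, triangles for those with it, and lines through the means of these log values. Of the 10, Pttg1 alone is not lower at 72 h than at 24 h, and Ccnb2 lies at 0 RPKM in both 72 h libraries without IL-21.

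Between 24 and 72 h without IL-21, 21 of the 22 tested members fell, and Pttg1 was the exception. Over all genes, 9.82% were called lower, or 344 genes against 174 higher (437 and 79 with library totals). When the 2 groups compared were fitted without the rest of the time course, 2 of the 21 were called, and 0.0856% of all genes. Of the 22, 6 passed the level filter through 6 and 24 h groups alone (Aurka, Cdca8, Cenpe, Hmmr, Kif11 and Ndc80). These 6 entered the test through groups where they were high. With filterByExpr and all 38 genes, 31 fell, against 6.77% of the 14879 genes fitted, and the median log2 fold change was -7.31 against -0.14. At 72 h, 20 and 14 of the 38 genes had 0 counts in the 2 libraries, and 11 had 0 counts in both (Plk1, Ccnb2, Aurka, Aurkb, Bub1b, Kif11, Kif20a, Kif2c, Ndc80, Nuf2 and Anln). Fitted values of such genes depend on the prior count, so folds for them are given as bounds, with 0 replaced by 3 counts per library. These bounds cover counting alone and not the spread between libraries. That spread was wide for some members at 72 h without IL-21, with 0 and 579 counts for Kif23 and 198 and 0 for Bub1. With the 11 at their bound, the median over the 38 was -6.68. Other members rested on few counts too, such as Ccnb1 with 2 and 2, Hmmr with 0 and 1, Tpx2 with 2 and 0 and Cenpe with 0 and 4 in the 72 h libraries without IL-21.

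Ccnb2 had 434 and 398 RPKM at 24 h and 0 and 0 at 72 h without IL-21, against 358 and 309 and 46 and 35.8 with it. By counting alone, it was at least 7195-fold lower at 72 h than at 24 h without IL-21. By the same measure it was at least 708-fold higher with IL-21 than without at 72 h. Ndc80, the microtubule-binding subunit of the kinetochore, had 16.5 and 14.7 RPKM at 24 h and 0 and 0 at 72 h without IL-21, against 14.1 and 11.9 and 1.75 and 1.9 with it. It was at least 1144-fold lower at 72 h without IL-21 and at least 134-fold higher with IL-21. Nuf2, its partner subunit, had 13.1 and 16 RPKM at 24 h and 0 and 0 at 72 h without IL-21, against 17.8 and 20.9 and 4.88 and 0.199 with it, with bounds of at least 1043-fold and at least 182-fold. Adjusted p-values were 6.69e-07, 2.44e-07 and 0.000453 for the falls of these 3 genes and 5.41e-06, 1.8e-06 and 0.00217 for IL-21 against none.

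The smallest of the 21 falls were those of Mad2l1, Cdk1 and Cenpa. Mad2l1, which with Bub1b forms the checkpoint inhibitor of Cdc20, had 85.2 and 63.6 RPKM at 24 h and 8.28 and 6.77 at 72 h without IL-21, against 62.6 and 68.1 and 13.6 and 13.2 with it. It fell without IL-21 at -2.97 ± 0.26 (adjusted p = 2.14e-05), the 72 h libraries holding the lowest 4 values of the time course. Cdk1 had 43 and 42 RPKM at 24 h and 3.39 and 0.00973 at 72 h without IL-21, against 53.3 and 53.9 and 12.5 and 2.95 with it, a fall of -4.42 ± 1.31 without IL-21 (adjusted p = 0.0401). Its 72 h replicates were far apart in both arms. Cenpa had 70.1 and 66.4 RPKM at 24 h and 3.94 and 0.0082 at 72 h without IL-21, against 69.5 and 69.6 and 14.5 and 12.8 with it, at -4.89 ± 1.33 without IL-21 (adjusted p = 0.0292).

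With IL-21, the drop from 24 to 72 h was smaller but still present: 12 of 22 members fell and 1 rose, Pttg1, which was not called with library totals in place of TMM factors. Over all genes, 6.02% were called lower and 8.76% higher, or 211 and 307 genes, against 351 and 148 with library totals. Fitting only the 2 groups gave 10 calls (1.94% of all genes), and leaving out either 24 h library with IL-21 gave 7 (5.71% and 5.88%). Over all 38 genes with filterByExpr, 13 fell, against 1.57% of the genes fitted, with a median of -2.74 against -0.09. Among called members, the largest falls were those of the spindle motor Kif11 (-3.89 ± 0.58, adjusted p = 0.00171), Ccna2 (-3.87 ± 0.93, adjusted p = 0.016) and Top2a (-2.97 ± 0.89, adjusted p = 0.0385). The smallest were those of the spindle factor Tpx2 (-1.97 ± 0.49, adjusted p = 0.0173), Cenpe (-1.92 ± 0.52, adjusted p = 0.0252) and Mad2l1 (-1.90 ± 0.25, adjusted p = 0.000623). Kif11 had 11.2 and 6.93 RPKM at 24 h and 0 and 0 at 72 h without IL-21, against 16.3 and 14.3 and 1.32 and 0.378 with it. Tpx2 had 15.8 and 15.7 RPKM at 24 h and 0.015 and 0 at 72 h without IL-21, against 18.1 and 17.8 and 4.05 and 3.11 with it. The 72 h libraries of both genes lay below their 24 h libraries in each arm. Kif11 passed the level filter through 24 h with IL-21 alone, so it entered the test through the group where it was high.

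At 72 h, 13 of 22 members were higher with IL-21 than without and 0 lower, where 6.57% of all genes were called higher. None of the 13 was called when only the 2 groups compared were fitted, nor any other gene. They were Ccnb1, Ccnb2 and Aurka of the cyclins and kinases, Aurkb, the kinetochore genes Ndc80, Nuf2, Spc25 and Cenpe, the spindle genes Kif11, Hmmr, Nusap1 and Tpx2, and Ube2c, the ubiquitin-conjugating enzyme of the anaphase-promoting complex. With filterByExpr and all 38 genes, 14 were called higher, against 4.41% of the genes fitted, and 33 were above 0 (median 4.27, or 4.09 with the 11 genes at their bound, against 0.01 for all genes). In absolute level the rise was small beside 24 h: the sum of the 38 genes was 302 RPKM with IL-21 at 72 h and 1516 at 24 h.

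Ccnb1 had 35.6 and 51.6 RPKM at 24 h and 0.0166 and 0.0114 at 72 h without IL-21, against 54.3 and 43.8 and 6.55 and 5.2 with it. It was higher with IL-21 at 72 h by 8.61 ± 0.38 on the log2 scale (adjusted p = 3.1e-07), with both IL-21 libraries far above the others at 72 h. The libraries without IL-21 held 2 counts each, so the fitted size depends on the prior count, and the ratio of pooled counts was 441 (172 to 1621) (exact 95% counting interval). Among called members the smallest differences were those of Spc25, Ube2c and Nusap1. Spc25 had 175 and 115 RPKM at 24 h and 0.615 and 2.18 at 72 h without IL-21, against 109 and 116 and 14.8 and 15.6 with it, or 3.32 ± 0.53 for IL-21 at 72 h (adjusted p = 0.00257). Ube2c had 198 and 219.9 RPKM at 24 h and 3.72 and 0.0185 at 72 h without IL-21, against 156 and 164 and 41.7 and 24.3 with it, or 4.16 ± 1.12 (adjusted p = 0.0419). Nusap1 had 58.2 and 56.5 RPKM at 24 h and 0.259 and 0.136 at 72 h without IL-21, against 61.8 and 57.9 and 8.48 and 4.57 with it, or 4.96 ± 0.34 (adjusted p = 7.6e-06). For all 3, the 72 h groups did not overlap, and Ube2c was not called with library totals in place of TMM factors (adjusted p = 0.0565).

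Some members had counts in 1 library of the IL-21 pair alone. Their bounds are for the mean of the pair and cover counting alone. Aurka had 20.9 and 9.19 RPKM at 24 h and 0 and 0 at 72 h without IL-21, against 28 and 20.2 and 7.79 and 0 with it, at least 111-fold higher with IL-21 on the mean (adjusted p = 0.0485). Aurkb had 13.7 and 10.5 RPKM at 24 h and 0 and 0 at 72 h without IL-21, against 24.2 and 15.2 and 2.34 and 0 with it, at least 38.9-fold higher on the mean (adjusted p = 0.0351). In both genes IL-21 replicate 2 had 0 counts like the libraries without IL-21, so the groups overlapped, and neither was called without IL-21 replicate 1. Aurka was also lost without either library of the arm without IL-21, and Aurkb without its replicate 2. With library totals in place of TMM factors Aurka was not called either (adjusted p = 0.0576). Plk1, not tested, had 2.95 and 0.573 RPKM at 24 h and 0 and 0 at 72 h without IL-21, against 5.05 and 3.85 and 1.55 and 0.0159 with it, again with nearly all of its signal in IL-21 replicate 1. Birc5 had 201 and 170.1 RPKM at 24 h and 5.11 and 0.0282 at 72 h without IL-21, against 212 and 185 and 20.6 and 13.7 with it, at 2.76 ± 1.09 for IL-21 at 72 h (adjusted p = 0.144), and did not pass. Top2a had 17.7 and 16.6 RPKM at 24 h and 0.0194 and 0.493 at 72 h without IL-21, against 21.7 and 20.0 and 3.04 and 1.26 with it (2.80 ± 0.90, adjusted p = 0.0746), and Mki67, not tested, 9.87 and 9.5 RPKM at 24 h and 0 and 0.00716 at 72 h without IL-21, against 10.5 and 8.69 and 2.36 and 0.944 with it. Cdc20, not tested, had 3.65 and 8.65 RPKM at 24 h and 0.0562 and 0 at 72 h without IL-21, against 12.5 and 3.67 and 1.36 and 0.0375 with it.

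The effect of IL-21 at 72 h minus that at 24 h was itself above 0 and called for 10 of 22 members, where 3.63% of all genes were called higher. Over all 38 genes with filterByExpr, 13 were called higher, against 2.2% of the genes fitted. The called genes were Ccnb1, Ccnb2, Ndc80, Nuf2, Spc25, Cenpe, Kif11, Hmmr, Nusap1 and Tpx2. Of these, Ndc80, Cenpe, Kif11 and Hmmr passed the level filter through 6 and 24 h groups alone. The change in the IL-21 effect was 8.54 ± 0.44 for Ccnb1 (adjusted p = 1.21e-06), 5.00 ± 0.43 for Nusap1 (adjusted p = 6.16e-05) and 3.78 ± 0.70 for Spc25 (adjusted p = 0.0104), the 3 smallest, that of Ccnb1 again resting on 2 counts in each 72 h library without IL-21. Without replicate 1 of the 72 h libraries lacking IL-21, 17 members were called in place of 10, against 22% of all genes. The effect at 24 h minus that at 6 h gave 0 calls by edgeR, DESeq2 and limma-voom, with 0 members at an unadjusted p under 0.05 and 0% of all genes called.

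At 72 h, 14 of 32 tested genes of other mitotic machinery were higher with IL-21 than without, as were 13 of 28 DNA replication genes, and 0 were lower. Of all genes tested, 6.57% were called higher. With filterByExpr, 24 of 87 other mitotic genes were higher and 2 lower, and 18 of 50 DNA replication genes were higher and 0 lower. In that gene set, 4.41% of all genes were called higher and 0.665% lower. Of 26 G1 and quiescence genes 0 were called there, with 5 at an unadjusted p under 0.05. Between 24 and 72 h without IL-21, 24 of 32 and 22 of 28 fell (51 of 87 and 30 of 50 with filterByExpr). Of all genes, 9.82% were called lower (6.77% with filterByExpr). With IL-21, 16 of 32 and 16 of 28 fell (16 of 87 and 16 of 50), against 6.02% of all genes (1.57%). Of 10 G1 and quiescence genes, the cyclin Ccnd3 (1.94) and Btg1 (1.55) rose between 24 and 72 h without IL-21. With IL-21, Btg1 (2.27), the inhibitor Cdkn2c (1.95) and Ccnd3 (1.69) rose and Cdkn1a (-4.35) fell.

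Measures of the libraries moved with these results. At 72 h without IL-21, 8488 to 8919 genes had at least 10 counts, mitochondrial genes took 8.44% to 11.8% of counts and the 10 most abundant genes 23.8% to 27.8%. At 72 h with IL-21 these were 9588 to 11685 genes, 4.37% to 5.73% and 18.2% to 28.0%, and in the earlier libraries 11513 to 13034 genes, 1.9% to 5.42% and 12.7% to 17.9%. Their part in the result was not tested. Total counts at 72 h, 28541369 to 41644246, overlapped with those at earlier times.

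Pttg1 did not follow the set. It had 65.3 and 71 RPKM at 0 h, 61.7 and 84.8 at 6 h, 85.7 and 75.7 at 24 h and 117 and 130.3 at 72 h without IL-21, and 82.9 and 76.5, 44.7 and 47.6, 62.9 and 64.3 and 95.2 and 114 with it. The 72 h libraries were the highest of the time course in both arms. Against 24 h, its log2 fold change was 0.97 ± 0.27 without IL-21 (adjusted p = 0.0299), just under the 2-fold limit, and it rose by 1.13 ± 0.27 with IL-21 (adjusted p = 0.015). With library totals in place of TMM factors, an alternative chosen after seeing the data, these values were 0.61 and 0.70 (adjusted p = 0.0494 and 0.0279), both under the 2-fold limit, so the call of a rise depends on the scaling. At 72 h without IL-21, no other member was above 10 RPKM. Beside securin's part in sister chromatid separation, Pttg1 is also known as a transcriptional regulator.

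Set side by side with no test, the cultures without IL-21 differed between the experiments. The 3 day ctrl libraries had sums of 576 and 474 RPKM over the 38 genes, and the 72 h libraries of the time course 148 and 147. Ccnb2 was at 73.5 and 55.5 RPKM in ctrl and at 0 in both 72 h libraries, and Pttg1 at 42.3 and 38.2 against 117 and 130.3. IL-21 libraries stood below ctrl in the former (377 and 261 RPKM) and above the arm without IL-21 in the latter (338 and 266 RPKM). By the labels, the experiments used different library kits, and their levels are not on a common scale.

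The single-cell tables were joined into 15175 cells, with 6821 genes from one table and 28416 from the other, and all 38 members were present. Cells with 200 to 2500 genes and a mitochondrial share under 10% were kept, which left 8909 cells. They held 28504 of the 137061 UMIs (counted molecules) of the 38 genes, or 20.8%, but 33.6% of all UMIs. The 4168 cells above 2500 genes held 76.8% of the UMIs of the set, at 1966 CPM (UMIs of the set scaled to the same total of UMIs; 95% exact Poisson interval 1954 to 1977) against 1015 (1004 to 1027) in the cells kept. Intervals cover counting error only, and as virgin and gd8.5 cells are pooled into 1 sample, no test was made. The doublet caller marked 0 of 8909 cells, so its calls were not relied on and doublets were not removed.

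Cells were clustered without the 38 genes and without the lists of other mitotic and DNA replication genes, and 12 of 16 clusters were named from markers. The 5 trNK-like clusters held 4791 cells and 20066 UMIs of the set, at 1109 CPM (1094 to 1125), 70.4% of the set's UMIs in 53.8% of cells and 64.4% of all UMIs. The cNK-like cells were at 712 (675 to 751), T-like at 599 (535 to 668), stromal-like at 428 (376 to 485) and B-like at 416 (367 to 469). Cells named macrophage-like were at 955 (922 to 989), mast-like at 1236 (1173 to 1300.2) and 90 erythroid-like cells at 2539 (2345 to 2744) CPM. Genes leading the mast-like cluster were Mcpt4, Tpsb2, Cpa3, Cd209a and Mgl2. No dendritic cell class was among the markers searched, so that cluster may hold cells of other kinds. Thus, in the cells kept, pooled trNK-like cells stood above cNK-like, T-like, stromal-like and B-like cells beyond counting error, but below erythroid-like and mast-like cells. The trNK-like cluster led by Hspb1 and Cited4, at 718 (686 to 752), overlapped with cNK-like cells. Of the 90 erythroid-like cells, 9 held 74.4% of that class's UMIs of the set. With no upper limit on genes, the trNK-like level was 1707 CPM, and levels of the other classes were not computed.

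**Figure D5:**
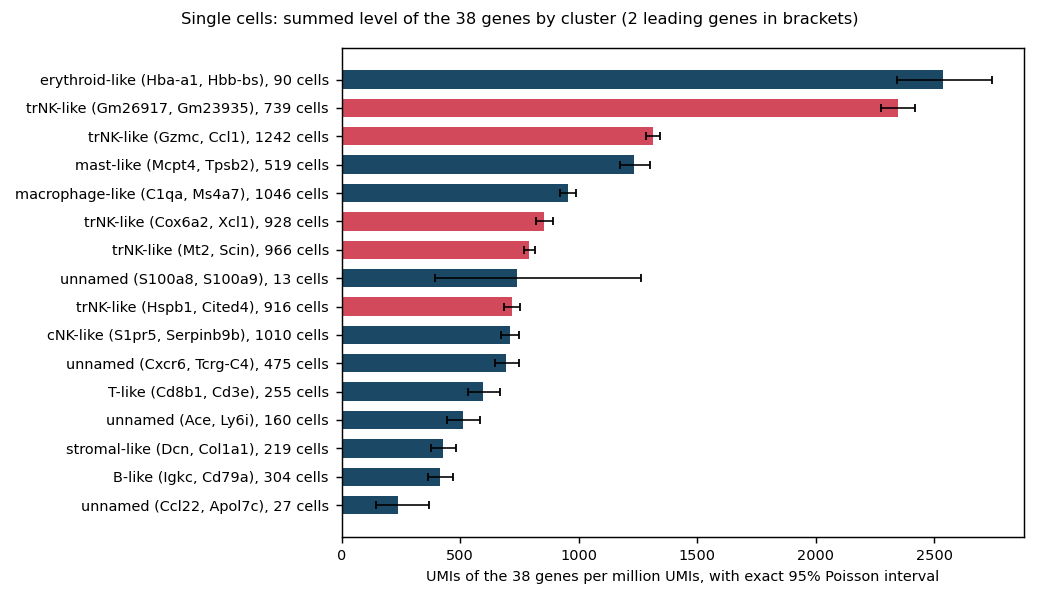
Summed UMIs of the 38 mitosis genes as CPM (horizontal axis) in each of 16 clusters (vertical axis, name, 2 leading genes and number of cells), with bars for the pooled level and whiskers for the exact Poisson interval. The 5 trNK-like clusters, in red, spread from 718 to 2346 CPM.

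Among the trNK-like clusters, 739 cells led by noncoding RNAs (Gm26917, Gm23935, n-R5-8s1 and Rn7sk) were highest at 2346 CPM (2276 to 2417). Their median of 1998 UMIs was the lowest of the 5. The 1242 cells led by Gzmc and Ccl1 were at 1313 (1283 to 1343). Lower levels were found in cells led by Cox6a2 and Xcl1 at 855 (822 to 890.4), by Mt2, Scin and Gzmg at 792 (768 to 817), and by Hspb1 and Cited4 at 718 (686 to 752). Without the cluster led by noncoding RNAs, an alternative chosen after seeing the data, the trNK-like level was 971 CPM, and with no upper limit on genes it was 1707.

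Most UMIs of the set came from few cells. The 480 trNK-like cells with the most held 66.1% of the class's UMIs of the set. With each cell thinned to 1000 UMIs, 10.2% of 4449 trNK-like cells (exact binomial interval 9.37% to 11.2%) had at least 3 UMIs of the set, against 4.22% (3.04% to 5.68%) of 972 cNK-like cells and 1.04% (0.215% to 3.00%) of 289 B-like cells, with 342, 38 and 15 cells left out as too shallow. The shares of 394 mast-like cells, 11.9% (8.90% to 15.5%), and 90 erythroid-like cells, 16.7% (9.64% to 26.0%), could not be separated from that of trNK-like cells at this depth. At least 1 UMI was found in 38.4%, 35.3% and 27.7% after thinning, and in 70.5%, 51.1% and 45.1% before it, at median depths of 3633, 1725.5 and 1825.5 UMIs.

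By gene, Top2a was the highest member in trNK-like cells, with 2522 UMIs or 139 CPM (134 to 145), then Cenpa at 127 (122 to 132), Mki67 at 77.4 (73.4 to 81.6), Ube2c at 67.8 (64.0 to 71.7) and Birc5 at 63.3 (59.7 to 67.1). In cNK-like cells Top2a was at 80.0 (67.8 to 93.7), Mki67 at 43.4 (34.6 to 53.8), Ube2c at 28.7 (21.7 to 37.4) and Birc5 at 29.3 (22.1 to 38.01). For these 4 genes the intervals of the classes did not overlap, trNK-like cells being higher. The reverse held for Pttg1, at 57.9 (54.4 to 61.5) in trNK-like and 77.4 (65.4 to 90.9) CPM in cNK-like cells, and for the cytokinesis gene Racgap1, at 26.5 (24.2 to 29.0) and 43.9 (35.0 to 54.4). Cdk1 was at 35.4 (32.7 to 38.2) against 19.9 (14.1 to 27.3), and Ccnb1 at 13.3 (11.7 to 15.1) against 5.75 (2.87 to 10.3). Plk1 (12.8, 11.2 to 14.6, against 8.36, 4.78 to 13.6) could not be separated at this depth. Aurkb was at 12.5 (10.9 to 14.2) against 5.75 (2.87 to 10.3) and Cdc20 at 14.3 (12.6 to 16.2) against 6.80 (3.62 to 11.6). Cdc25c was lowest in trNK-like cells, at 2.65 (1.96 to 3.52) from 48 UMIs.

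Other mitotic genes (84 of 87 in the tables) were at 1914 CPM (1894 to 1934) in trNK-like and 1630 (1573 to 1688) in cNK-like cells, while T-like cells were above both at 2128 (2006 to 2255), and DNA replication genes (49 of 50) at 2143 (2122 to 2165) and 2086 (2022 to 2152). G1 and quiescence genes (27 of 28) were lower in trNK-like cells, at 2421 (2399 to 2444) against 5393 (5289 to 5498).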

How the data were processed

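The study's methods give alignment to mm10 with HISAT2 and quantification with RSEM, while the submitters' processing notes list HISAT2 (2.1.0) and featureCounts without roles. The bulk values deposited by the authors are whole-number counts per gene with exon lengths. The single-cell tables were deposited as UMI counts, and the ATAC-Seq samples were not used here. The members and lists were chosen with earlier results of these data known. Bulk counts were tested with edgeR 4.0.16 (TMM factors, quasi-likelihood test, Benjamini-Hochberg adjustment over all genes tested, 1 fit per set without a replicate block). RPKM used the exon lengths shared by the tables. Named genes were 8 fixed members, the 3 largest and 3 smallest changes among called members, and the 2 highest and 2 lowest where 0 were called. Alternatives were DESeq2 1.42.0, limma-voom 3.58.1, other size factors (with library totals added after seeing the data) and filters, and leaving out each library. The tests were tried on simulated data with known changes. Single cells were clustered with scanpy 1.11.5 (1986 variable genes, 20 components, 20 neighbours, Leiden resolution 0.8). Intervals are 95% exact intervals.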

Additional observations from a re-analysis of the deposited data

Results flagged for a closer look

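The effect of IL-21 differed between 24 and 72 h for 10 mitosis genes, by the test of the difference itself in edgeR's quasi-likelihood fit. Of all 3503 genes tested, 3.63% were called higher. In the 72 h libraries without IL-21, 8488 to 8919 genes had at least 10 counts and 8.44% to 11.8% of counts were mitochondrial. The part of these measures was not tested. On the log2 scale, the effect at 72 h minus that at 24 h was 8.54 for Ccnb1 (adjusted p = 1.21e-06), 15.09 for Ccnb2 (adjusted p = 1.46e-05), 8.92 for Cenpe (adjusted p = 0.000162), 9.13 for Hmmr (adjusted p = 0.00111), 9.98 for Kif11 (adjusted p = 0.00078), 5.00 for Nusap1 (adjusted p = 6.16e-05), 8.87 for Tpx2 (adjusted p = 0.000158), 12.66 for Ndc80 (adjusted p = 5.42e-06), 12.21 for Nuf2 (adjusted p = 0.00925) and 3.78 for Spc25 (adjusted p = 0.0104). Ccnb2, Kif11, Ndc80 and Nuf2 had 0 counts in both 72 h libraries without IL-21, and Ccnb1 (2 and 2), Hmmr (0 and 1), Tpx2 (2 and 0) and Cenpe (0 and 4) had few, so the size of the values of these 8 genes depends on the prior count. With 0 replaced by 3 counts per library, the effect of IL-21 at 72 h alone was at least 9.47 for Ccnb2, 5.53 for Kif11, 7.07 for Ndc80 and 7.51 for Nuf2 on the log2 scale. These bounds cover counting and not the spread between libraries. Cenpe, Hmmr, Kif11 and Ndc80 passed the level filter through 6 and 24 h groups alone, so they entered the test through groups where they were high.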

How the results depend on the processing

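The share of all genes called in either direction stands in brackets after each number of members called. With DESeq2, members called numbered 12 (10.3%) at gd6.5 against virgin in place of 5, 5 (4.91%) at gd8.5 against gd6.5, 1 (3.99%) in CB_int against CB_low, 5 (23%) in CB_hi against CB_low, 1 (3.9%) in Il21 against ctrl, 5 (14%) in Il21/iSTAT3 against ctrl and 2 (0.228%) from 0 to 6 h, and with limma-voom 9 (7.93%) at gd6.5 against virgin. In CB_hi against CB_low and Il21/iSTAT3 against ctrl limma-voom called 2 (21.1%) and 3 (6.49%). With filterByExpr, 0 (0.0356%) were called at gd6.5 against virgin, 0 (6.75%) in CB_hi against CB_low and 0 (0.00733%) and 0 (0.154%) in Il21/iSTAT3 against Il21 and ctrl, with more genes tested. With no filter on low counts, calls were 19 (3.89%), 5 (2.13%) and 11 (1.92%) in the gestation comparisons, 9 (1.8%) in CB_int and 23 (7.71%) in CB_hi against CB_low, 6 (2.17%) and 8 (3.07%) for Il21/iSTAT3 against Il21 and ctrl, 29 (5.75%) for IL-21 at 72 h, 1 (0.0227%) from 0 to 6 h, 35 (6.93%) and 28 (2.59%) from 24 to 72 h without and with IL-21, and 25 (3.18%) for the change in the IL-21 effect, with more members tested. Fitting only the groups compared gave 0 (0%) at gd6.5 against virgin, 5 (5.53%) at gd8.5 against gd6.5, 9 (21.4%) in CB_hi against CB_low, 1 (1.37%) in Il21/iSTAT3 against Il21, 0 (0%) for IL-21 at 72 h, 2 (0.143%) from 0 to 6 h, 1 (4.42%) from 6 to 24 h with IL-21 and 2 (0.0856%) from 24 to 72 h without it; the cause was not tested. Leaving out 1 library gave 0 to 19 (0% to 17.4%), 0 to 9 (0% to 10.7%), 0 to 0 (8.93% to 18.4%), 0 to 1 (0.168% to 0.938%) and 1 to 2 (0.89% to 2.21%) at gd6.5 and gd8.5 against virgin, in CB_hi against CB_low, and in Il21/iSTAT3 against Il21 and ctrl, and 10 to 18 (7.02% to 26.1%), 18 to 22 (6.48% to 32.5%), 7 to 15 (5.71% to 24.6%) and 8 to 17 (1.83% to 22%) for IL-21 at 72 h, both 24 to 72 h comparisons and the change in the IL-21 effect. The trNK-like level and share of the set's UMIs, 1109 CPM and 70.4%, were 986 CPM and 55% with 200 to 2500 UMIs, 1707 CPM and 85% with no upper limit, 980.4 CPM and 56.5% at resolution 0.4, 1131 CPM and 71.4% with only the 38 genes left out of clustering, and 971 CPM and 55.4% without the cluster led by noncoding RNAs. With library totals in place of TMM factors, chosen after seeing the data, 1 (2.45%) was called in Il21/iSTAT3 against Il21, the other 19 comparisons stayed within 1.5 times, and the median of all genes moved by -0.24 in Il21 and -0.34 in Il21/iSTAT3 against ctrl, and by -0.34 and -0.36 from 24 to 72 h without and with IL-21. Of 868 values of single members under alternatives, 717 kept their side of the threshold, 151 lost it and 0 reversed. With 2 libraries a group, depth limits members with few counts.

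With the replicate number as a block, calls were 0 (0.0444%) at gd6.5 against virgin, 6 (22.4%) in CB_hi against CB_low, and 0 (0.192%) and 1 (1.32%) in Il21/iSTAT3 against Il21 and ctrl, and the other 16 of 20 comparisons stayed within 1.5 times. Deviations of libraries with the same number correlated at -0.509 to 0.598 over 37 pairs of groups, and in no set was every correlation above 0.1, so the numbers were not taken to pair the libraries. In the 3 day culture, ctrl and Il21 correlated at 0.598, and Il21/iSTAT3 with them at -0.456 and -0.509. Whether libraries of unlike numbers are paired was not tested.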
